A study of Mus musculus with 2 samples.

Results

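The 10 genes described here are Notch receptors (Notch1, Notch2, Notch3 and Notch4), their ligands (Dll1, Dll4, Jag1 and Jag2) and the targets Hes1 and Hey1. They were taken by name as parts of 1 pathway, and all 10 were among the 19169 genes measured. RNA was read from single cells of mouse gastrocnemius muscle 14 days after the muscle was injured with cardiotoxin (CTX), a venom protein that destroys muscle fibers. There was 1 library from GSDME-KO mice, in which the pore-forming protein gene Gsdme was knocked out, and 1 library from WT C57BL/6J mice. All mice were male, and their age is not given in the sources used here. Each genotype had 5 mice, and whether a library pooled them is not stated. With 1 library per genotype no test between genotypes was possible and no p-value is given. Ranges in parentheses after a value are exact 95% intervals, which cover counting error only and not the spread between mice.

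Notch receptors are membrane proteins that bind ligands on neighboring cells, the Delta-like (Dll) and Jagged (Jag) proteins. Binding lets proteases free the inner part of the receptor, which enters the nucleus, joins the DNA-binding protein RBPJ and switches on targets such as the Hes and Hey repressors. In vessels the pathway is known for setting arterial against venous identity and for tying mural cells to endothelium, and in muscle it is known for keeping muscle stem cells (MuSCs) quiescent.

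The WT-labelled library held 6354 cells and 44758518 unique molecular identifiers (UMIs, each marking 1 captured RNA molecule), and the KO-labelled library held 7078 cells and 50930010 UMIs. Gsdme itself was read as 225 UMIs in the WT-labelled library and 237 in the KO-labelled library, which is 5.03 and 4.65 UMIs per 1000000 UMIs of the group (CPM). The log2 ratio of KO over WT was −0.11 (−0.38 to 0.16), so Gsdme RNA summed over all cells did not set the libraries apart at this depth. In fibro-adipogenic progenitor (FAP)-like cells, named as below, it was 5.29 and 3.44 CPM from 63 and 61 UMIs. The log2 ratio there was −0.62 (−1.15 to −0.09). In every other named type with a ratio the interval held 0, as in macrophage-like cells (0.02, −0.74 to 0.79). Counts per gene do not show whether a deleted exon was read, so the genotypes are given below only as the labels have them. The libraries shared 4 cell barcodes. Cells were named from marker genes after clustering, with the Notch genes kept out of the genes that drew the clusters, and are called "-like" for that reason. The markers fitted the names used most below. Endothelial markers summed to 9177 and 10167 CPM in endothelial-like cells of the WT- and KO-labelled libraries and to 67.4 and 39.7 CPM in FAP-like cells. MuSC markers summed to 1515 and 2321 CPM in MuSC-like cells and to 7.89 and 16.9 CPM in FAP-like cells. One group went against its label in part. Of 1115 mural-like cells (pericytes and smooth muscle), a cluster of 732 carried endothelial markers at 72.1% of their endothelial-like level, and the other, of 383 cells, at 4.33%, so mural values are given for both.

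Entries for the bases just before the start of transcription matched 8 of the 10 genes (RefSeq, GRCm38.p6), and the targets Hes1 and Hey1 had none. Those of Dll4 and Notch3 are printed because these genes marked opposite sides of the vessel wall in the results that follow, Dll4 in endothelial-like and Notch3 in mural-like cells. Dll4 lies on chr2:119325784-119335962 on the plus strand and its window is chr2:119325534-119325783. Notch3 lies on chr17:32120820-32166852 on the minus strand and its window is chr17:32166891-32167140. Capitals mark the GC box GGGCGG on either strand.
Dll4: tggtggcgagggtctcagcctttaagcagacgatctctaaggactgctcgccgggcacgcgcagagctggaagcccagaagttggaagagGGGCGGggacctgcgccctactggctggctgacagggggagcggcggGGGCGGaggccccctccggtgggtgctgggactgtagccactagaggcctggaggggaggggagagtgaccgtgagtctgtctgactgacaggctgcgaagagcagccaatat
Notch3: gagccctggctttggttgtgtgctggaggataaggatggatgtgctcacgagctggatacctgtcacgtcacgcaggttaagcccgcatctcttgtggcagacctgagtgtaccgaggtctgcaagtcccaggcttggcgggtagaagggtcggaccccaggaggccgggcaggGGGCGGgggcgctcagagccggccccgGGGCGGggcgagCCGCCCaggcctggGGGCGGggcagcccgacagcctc

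The GC box occurred 2 times in the window of Dll4 and 4 times in that of Notch3. It was found in 5 of 9 windows of the members (Dll1 has 2 starts) and by 32.7% of all 32851 windows of 250 bases. The core letters of the RBPJ site, TGGGAA on either strand, were in 0 of the 9 windows and in 21.6% of all windows, which says only that these letters are not in these windows. The 9 windows belong to receptors and ligands, and the targets Hes1 and Hey1 were not searched. GENCODE M21 places a gene on the other strand over 5 of the 10 members (Notch1, Notch3, Notch4, Dll1 and Dll4), and whether reads were counted by strand is not given in the sources used here.

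Over 10 cell types, all with 50 or more cells per library, the receptors differed in the order of their levels. Some types held several of them. Notch1 was highest in endothelial-like cells, at 418 CPM (404 to 433) in the WT-labelled library and 434 CPM (419 to 450) in the KO-labelled library. Lymphatic endothelial-like cells followed at 380 and 411 CPM and mural-like cells at 369 and 374 CPM, and neighbors in this order had overlapping intervals in both libraries. Below them, with no overlap, came Schwann-like cells at 201 and 245 CPM. Macrophage-like cells held 143 and 176 CPM and MuSC-like cells 129 and 159 CPM. FAP-like cells, at 24.8 and 17.8 CPM, stood near the bottom, above tenocyte-like cells alone.

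Notch2 was lowest where Notch1 was highest, in endothelial-like cells. Its 35 UMIs in endothelial-like cells of the WT-labelled library and 20 in those of the KO-labelled library gave 4.69 and 2.90 CPM, the lowest of the 10 types. It reached 95.2 and 139 CPM in MuSC-like cells, 105 and 102 CPM in macrophage-like cells, 98.0 and 96.9 CPM in tenocyte-like cells and 79.6 and 72.8 CPM in FAP-like cells. In the WT-labelled library the intervals of the first 3 of these overlapped from one to the next. Lymphatic endothelial-like cells, at 42.2 and 43.6 CPM, differed from the blood endothelial-like cells in holding Notch2.

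Notch3, the receptor best known from pericytes and vascular smooth muscle, was read mainly in MuSC-like and mural-like cells. MuSC-like cells held 247 CPM (225 to 272) in the WT-labelled library and 459 CPM (424 to 496) in the KO-labelled library. Mural-like cells held 292 and 264 CPM, and no other type passed 31.7 CPM in either library. After each cell was thinned to 1000 UMIs, 24.2% (18.8 to 30.1) of the MuSC-like cells of the WT-labelled library and 38.0% (31.8 to 44.5) of those of the KO-labelled library had a Notch3 UMI, from 76.8% and 86.3% before thinning. The share in macrophage-like cells, taken as the background, was 0.230% and 0.280% after thinning. Median depths were 6386 and 5473 UMIs in MuSC-like and 5533 and 5565 UMIs in macrophage-like cells.

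Notch4, a receptor of the endothelium, was read at 96.7 and 101 CPM in endothelial-like cells and at 56.0 and 58.0 CPM in mural-like cells. It was at 0 UMIs in MuSC-like cells of both libraries, which allows up to 1.71 and 2.15 CPM (3 UMIs). It was at or under 17.3 CPM in every other type of both libraries, lymphatic endothelial-like cells included (10.5 and 3.11 CPM).

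Of the ligands, Dll4, known for its part in arteries and sprouting vessels, was highest in endothelial-like cells at 254 CPM (242 to 265) and 278 CPM (265 to 290). Mural-like cells followed at 178 and 172 CPM and lymphatic endothelial-like cells at 90.4 and 106 CPM, each step without overlap of the intervals. Schwann-like cells held 43.9 CPM in the WT-labelled library and 10.8 CPM in the KO-labelled library. It was at 0 and 2 UMIs in MuSC-like cells. Jag2 had the same first and second types, with 152 and 122 CPM in endothelial-like and 76.0 and 78.8 CPM in mural-like cells, and was at or under 20.4 CPM elsewhere.

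Dll1 was highest in endothelial-like cells too, at 108 CPM (101 to 116) in the WT-labelled library and 78.9 CPM (72.5 to 85.9) in the KO-labelled library. Lymphatic endothelial-like cells held 64.8 and 49.8 CPM and mural-like cells 60.7 and 52.5 CPM. Jag1 was the most widely read ligand. Its level was 93.6 and 105 CPM in mural-like cells, 72.0 and 93.1 CPM in Schwann-like cells, 58.7 and 84.6 CPM in MuSC-like cells, 54.3 and 46.0 CPM in endothelial-like cells and 46.7 and 44.0 CPM in FAP-like cells. Intervals of neighbors in that order overlapped in both libraries, except between MuSC-like and endothelial-like cells of the KO-labelled library.

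Both targets were read in endothelium but were spread differently. Hes1, a repressor that also answers to other signals, was highest in lymphatic endothelial-like cells at 523 and 573 CPM, followed by endothelial-like cells at 359 and 421 CPM and mural-like cells at 266 and 361 CPM, with no overlap between neighbors. It was lower in FAP-like cells, at 103 and 117 CPM, and in MuSC-like cells, at 46.2 and 42.3 CPM. Hey1, which is linked to arterial identity, was read at 68.8 and 79.8 CPM in endothelial-like cells, 60.4 and 76.7 CPM in MuSC-like cells and 49.4 and 61.7 CPM in mural-like cells, and these neighbors overlapped. It was near absent from FAP-like cells (3.27 and 3.44 CPM) and macrophage-like cells (1.40 and 1.56 CPM).

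**Figure D1:**
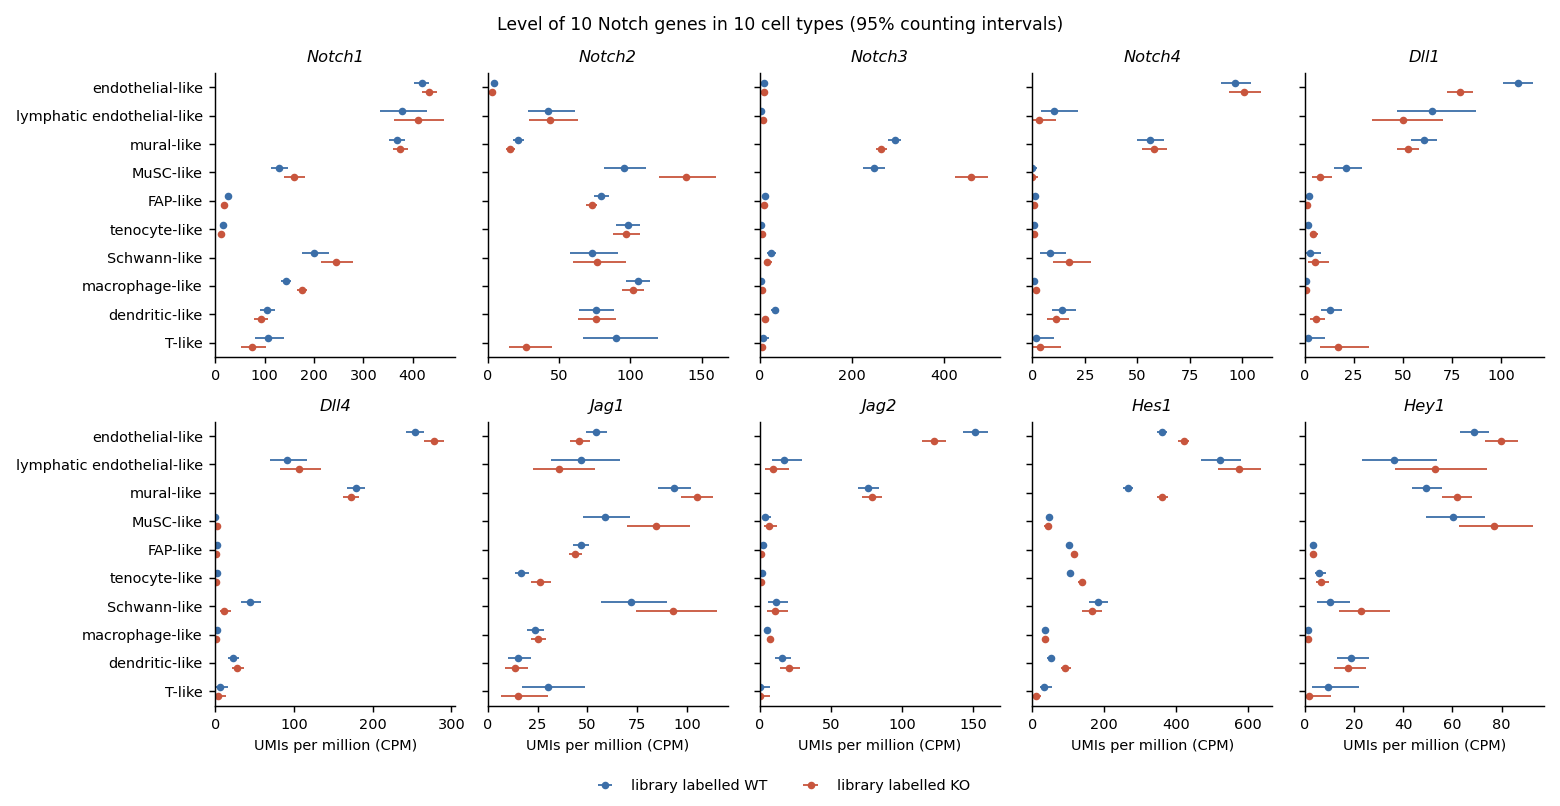
Level of each of the 10 genes (horizontal axis, CPM, linear and set per panel) in 10 cell types, for the WT-labelled (blue) and KO-labelled (red) library; points are summed UMIs and bars exact 95% counting intervals. Notch3 stands high only in the rows of MuSC-like and mural-like cells, at 247 to 459 CPM, while Notch1, Notch4, Dll4 and Jag2 stand highest in endothelial-like cells.

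In both libraries 6 of the 10 members (Notch1, Notch4, Dll1, Dll4, Jag2 and Hey1) had their highest level in endothelial-like cells, beside 7.87% of the 13194 genes with at least 100 UMIs in these types. Jag1 was highest in mural-like cells in both, beside 2.09% of genes, and Hes1 in lymphatic endothelial-like cells, beside 5.4%. For Notch2 and Notch3 the highest type differed between the libraries. Over the 10 types, described by Pearson's r of the log2 level after adding 10 CPM and averaging the libraries, the gene most like Dll4 was Mmrn2 (r = 0.9995), like Notch4 Aqp7 (0.994), like Notch3 Heyl (0.982), like Jag2 Nxpe4 (0.982), like Hey1 Cdh13 (0.982), like Hes1 Ldb2 (0.982), like Dll1 Tead4 (0.980), like Notch1 Cdk9 (0.988), like Jag1 Dido1 (0.935) and like Notch2 Tbl1xr1 (0.900). These r values rest on 10 types of the same libraries and carry no test.

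Within the endothelium, subclusters were named from arterial, capillary, venous and lymphatic markers, again without the Notch genes. The arterial-like subset held 337 cells, the capillary-like 1083, the lymphatic-like 160 and the venous-like 72, of which 25 were from the KO-labelled library, and 725 cells took no subset name. The larger of the 2 capillary-like subclusters, of 581 cells, had the muscle fiber genes Myl3, Mb and Myl2 among its leading genes, so ratios are also given against the other, of 502 cells, a choice made after the data were seen. The subcluster of 502 cells was itself led by Mbp, used here as a Schwann marker. Its median depth was 3151 UMIs per cell, against 6505 in the larger subcluster. Hey1 was read at 200 CPM (178 to 225) and 240 CPM (212 to 271) in arterial-like cells and at 38.4 and 50.3 CPM in capillary-like cells, with log2 ratios of 2.38 (2.08 to 2.68) in the WT-labelled library and 2.25 (1.96 to 2.55) in the KO-labelled library. Against the 502 cells the ratio over both libraries was 1.63 (1.36 to 1.91). In venous-like cells it came to 2 UMIs (4.60 CPM) in the WT-labelled library and 0 UMIs in the KO-labelled library, which allows up to 14.2 CPM.

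The receptor Notch1 was also higher in arterial-like than in capillary-like cells, at 613 against 301 CPM in the WT-labelled library and 509 against 341 CPM in the KO-labelled library. Dll4 had 379 against 193 CPM and 307 against 259 CPM in the same order, a log2 ratio of 0.97 (0.81 to 1.14) in one library and 0.24 (0.05 to 0.43) in the other. Jag1 had 82.3 against 45.6 CPM and 80.1 against 33.3 CPM. Against the 502 cells the intervals of these ratios still lay above 0. Hes1 ran the other way, with 260 against 440 CPM and 377 against 481 CPM, but against the 502 cells it had −0.62 (−0.84 to −0.41) in the WT-labelled library and turned to 0.15 (−0.06 to 0.36) in the KO-labelled library. Notch4 and Jag2 differed between these subsets by no more than the counting intervals, with log2 ratios of 0.06 (−0.23 to 0.35) and 0.10 (−0.22 to 0.42) for Notch4 and −0.03 (−0.25 to 0.19) and 0.20 (−0.07 to 0.47) for Jag2. Against the 502 cells Notch4 was lower in arterial-like cells, with log2 ratios of −0.39 (−0.75 to −0.03) and −0.40 (−0.77 to −0.03). Most arterial-like cells (287 of 337) came from a subcluster led by hemoglobin genes, and pericyte markers summed to 2212 and 3030 CPM in arterial-like against 794 and 989 CPM in capillary-like cells. Notch3 moved with these markers, at 20.2 and 27.3 CPM against 3.31 and 3.74 CPM, and the part of pericyte RNA in it was not tested. In the other 50 arterial-like cells, taken alone after the data were seen, the log2 ratio of Hey1 to capillary-like cells over both libraries was 3.23 (2.81 to 3.62), against 2.31 (2.11 to 2.52) for all 337.

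The venous-like cells were few, and their values are wide. Dll1 was highest there, at 242 CPM (198 to 293) from 105 UMIs in the WT-labelled library and 198 CPM (143 to 268) from 42 UMIs in the KO-labelled library, with intervals of the log2 ratio to capillary-like cells of 0.99 to 1.64 and 0.99 to 1.98. The opposite held for Dll4, at 59.9 and 75.5 CPM, and for Notch4, at 39.1 and 33.0 CPM, both below their capillary-like levels beyond the counting intervals, and each of these directions held against the 502 cells. Lymphatic-like cells kept Notch1 at 380 and 412 CPM and Hes1 at 525 and 577 CPM, and had little Notch4 (10.6 and 3.14 CPM) or Jag2 (16.6 and 9.43 CPM). Notch2, at 42.4 and 44.0 CPM, was higher there than in capillary-like cells by 3.56 (2.56 to 4.63) and 4.21 (2.98 to 5.65) on the log2 scale.

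**Figure D2:**
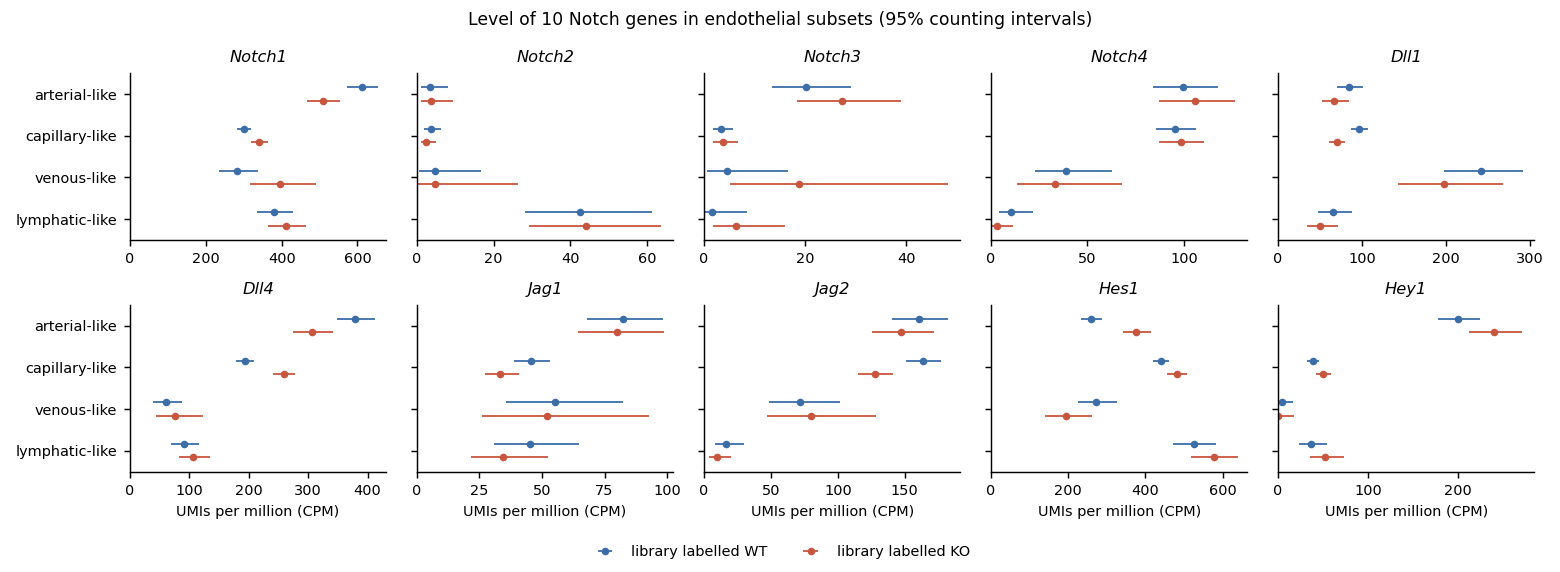
Level of each gene (CPM, linear, set per panel) in 4 endothelial subsets by library, with exact 95% counting intervals. Hey1 stands at 200 and 240 CPM in arterial-like cells and at 4.60 and 0 CPM in venous-like cells, while Dll1 is highest in venous-like cells.

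The mural-like cells came in 2 parts that read very differently for these genes. By markers, the part with endothelial RNA was named pericyte, with Rgs5 and Higd1b among its leading genes. The other was named smooth muscle, led by Acta2, Myh11 and Tagln, with the pericyte markers Abcc9, Kcnj8 and Higd1b also among its leading genes. Differences between the parts by cell type and by endothelial RNA therefore cannot be told apart. The part with little endothelial RNA had a median of 1822.5 and 1750 UMIs per cell in the WT- and KO-labelled libraries, and the part with endothelial RNA 12940 and 13064. A caller of doublets, Scrublet, marked 0 of 383 cells in the former and 24 of 732 in the latter. Notch3 was at 922 CPM (835 to 1017) and 880 CPM (800 to 965) in the part with little endothelial RNA and at 238 and 210 CPM in the other. Jag1, the ligand that mural cells are known to carry, was at 264 and 306 CPM against 78.8 and 87.4 CPM. Notch2 was at 41.0 and 41.2 CPM against 19.6 and 13.5 CPM.

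The endothelial members went the other way. Dll4 was at 18.2 and 7.84 CPM in the part with little endothelial RNA and at 192 and 186 CPM in the other. Notch4 (3 and 2 UMIs), Dll1 (4 and 2 UMIs), Jag2 (4 and 4 UMIs) and Hey1 (5 and 7 UMIs) were at or under 13.7 CPM in the former, against 52.7 to 85.0 CPM in the latter. Endothelial markers summed to 476 and 368 CPM in the former and to 6511 and 7348 CPM in the latter, and how far these carry the difference was not tested. The mural-like level of Dll4, Notch4 and Jag2 thus came mostly from the cells that carried endothelial RNA. Notch1 and Hes1 stayed high without it. Notch1 was at 253 CPM (208 to 304) and 174 CPM (140 to 215), and Hes1 at 408 CPM (350 to 472) and 470 CPM (413 to 534). Against endothelial-like cells, the log2 ratio of Hes1 was 0.18 (−0.04 to 0.40) and 0.16 (−0.04 to 0.35), a difference within counting error.

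**Figure D3:**
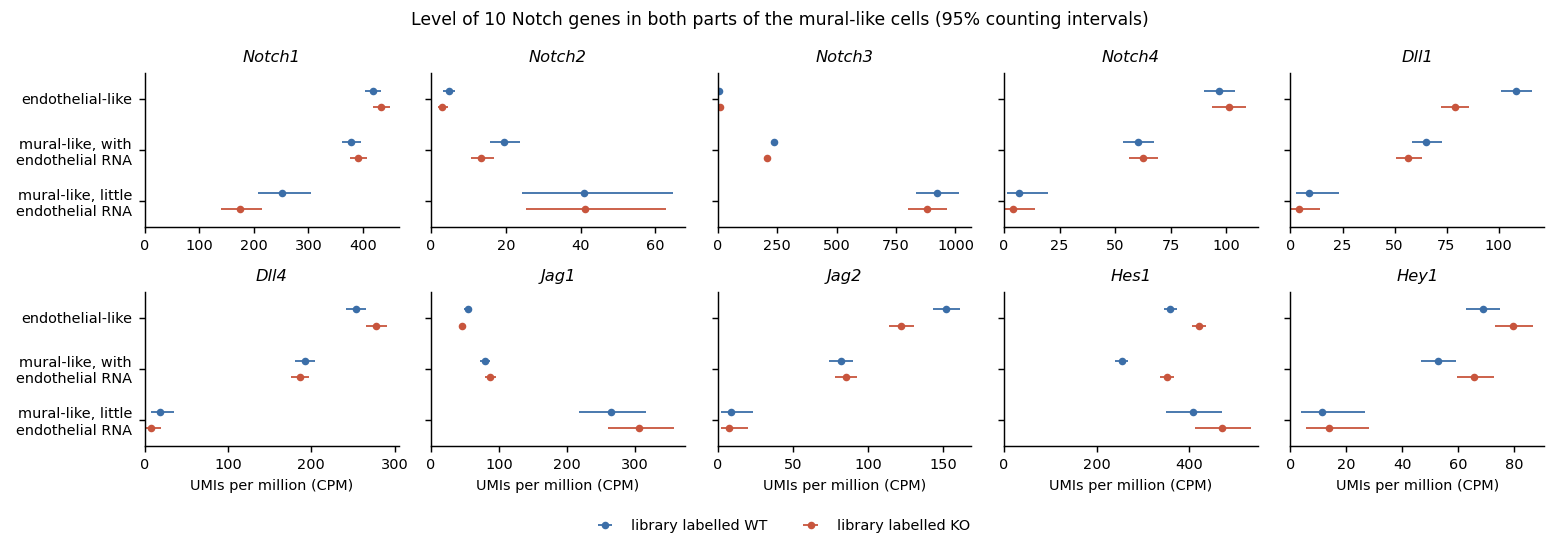
Level of each gene (CPM, linear, set per panel) in endothelial-like cells and in mural-like cells with and with little endothelial RNA, by library, with exact 95% counting intervals. Notch3 and Jag1 are highest where endothelial RNA is little, at 880 to 922 and 264 to 306 CPM, and Dll4, Notch4, Dll1, Jag2 and Hey1 are lowest there.

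The cells named FAP-like, the connective-tissue progenitors of muscle, formed 3 clusters that differed in receptor RNA levels. Notch2 was the highest of the receptors in each of them in both libraries. Notch2 was at 137 CPM (124 to 151) and 122 CPM (112 to 134) in the cluster led by Pi16 and Efemp1, against 58.1 and 56.6 CPM in the largest cluster, led by Mme and Dlk1. Jag1 had the same direction, with 66.6 and 76.2 CPM against 35.8 and 33.4 CPM. Notch1 had the opposite one, with 9.99 and 4.31 CPM against 29.4 and 22.7 CPM. Notch3 did likewise, with 2.66 and 0.959 CPM (only 8 and 4 UMIs) against 12.2 and 12.2 CPM. The interval of each of these ratios excluded 0 in both libraries.

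Hes1 was highest in the cluster led by Clu and Myoc, at 226 CPM (204 to 250) and 213 CPM (192 to 237), against 69.6 and 90.7 CPM in the largest cluster. The log2 ratios were 1.70 (1.51 to 1.90) and 1.23 (1.06 to 1.41). In this cluster Notch2, at 69.5 and 64.9 CPM, differed from the largest cluster by no more than the interval of the ratio, 0.26 (−0.05 to 0.56) and 0.20 (−0.11 to 0.49). The clusters were drawn from the same cells, so these are descriptions of the clusters and not tests.

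**Figure D4:**
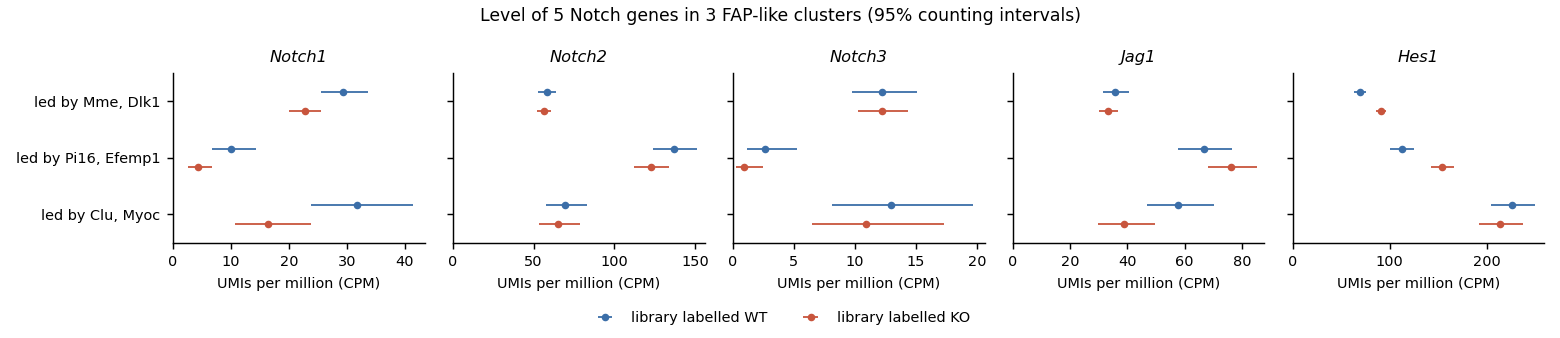
Level of 5 genes (CPM, linear, set per panel) in 3 FAP-like clusters, named by their leading genes, by library, with exact 95% counting intervals. Notch2 and Jag1 are highest in the cluster led by Pi16 and Efemp1 (Notch2 at 137 and 122 CPM), and Hes1 in the cluster led by Clu and Myoc.

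Between the libraries, MuSC-like cells had more Notch3 and less Dll1 where the label was KO. There were 241 cells in each library. Of the 7 members with at least 20 UMIs, 2 passed 1.5-fold, 1 in each direction, beside 28.8% of the 8720 genes tested (16.6% higher and 12.2% lower in the KO-labelled library). Notch3 was at 434 UMIs (247 CPM) in the WT-labelled library and 640 UMIs (459 CPM) in the KO-labelled library, a log2 ratio of 0.89 (0.71 to 1.07). Dll1 was at 37 UMIs (21.1 CPM) and 11 UMIs (7.89 CPM), a log2 ratio of −1.42 (−2.54 to −0.42), and 1 cell held 3 of the 11. At a finer clustering (resolution 1.2) the ratio of Dll1 was −0.72 (−1.40 to −0.07), and without cells that had a Myog UMI it was −1.01 (−2.25 to 0.13). Notch2 (0.55, 0.24 to 0.85), Jag1 (0.53, 0.13 to 0.92) and Notch1 (0.30, 0.03 to 0.57) had log2 ratios above counting error and below 1.5-fold. The intervals of Hes1 (−0.13, −0.64 to 0.38) and Hey1 (0.34, −0.06 to 0.75) held 0, and Hes1 turned to 0.33 (0.06 to 0.59) at the finer clustering. Another target, Heyl, from 120 and 138 UMIs, had 0.53 (0.17 to 0.90). Heyl was also higher in the KO-labelled library over all cells (0.44, 0.28 to 0.60) and in mural-like cells (0.46, 0.24 to 0.68). The same held in FAP-like (0.54, 0.09 to 0.996) and tenocyte-like cells (1.64, 0.63 to 2.74). In dendritic-like cells it had −0.76 (−2.21 to 0.57), from 15 and 8 UMIs. As means over MuSC-like cells, Notch3 had 0.62, below its interval, Notch1 0.09 and Hes1 −0.63. On that measure Dll1 had −1.46, Notch2 0.39, Jag1 0.53 and Hey1 0.31. The median of the 7 members was 0.34, and that of all genes tested 0.04.

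Other genes differed alongside Notch3 in these cells. The MuSC markers Pax7 and Myod1 had log2 ratios of 0.88 (0.66 to 1.10) and 0.80 (0.64 to 0.96), and Myog, a factor of differentiating myoblasts, −1.07 (−1.31 to −0.83). Myog was read in 15 of the 241 cells of the WT-labelled library and in 3 of those of the KO-labelled library, and without these cells, a choice made after the data were seen, Notch3 had a log2 ratio of 0.69 (0.51 to 0.87). Of 18 immediate-early and heat-shock genes, which answer to handling of tissue as well as to injury, 13 passed 1.5-fold, all higher in the KO-labelled library, with a summed level of 12858 against 23756 CPM. Pericyte markers, whose cells carry Notch3, summed to 41.6 CPM in the WT-labelled library and 132 CPM in the KO-labelled library, against 18654 and 22445 CPM in mural-like cells with little endothelial RNA. The part of these in the Notch3 difference was not tested.

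In endothelial-like cells 1 of the 10 members passed 1.5-fold, beside 12.1% of 11509 genes (5.81% higher and 6.29% lower in the KO-labelled library). This was Notch2, lower in the KO-labelled library, from 35 and 20 UMIs, and its interval reached past 0 (−0.69, −1.56 to 0.14). Among the members of higher count, the ligand Dll1 was lower in the KO-labelled library with a log2 ratio of −0.46 (−0.62 to −0.30) and Jag2 with −0.31 (−0.44 to −0.18). Hes1 was higher with 0.23 (0.15 to 0.31), Hey1 with 0.21 (0.04 to 0.39) and Dll4 with 0.13 (0.04 to 0.22), which was 0.0026 as a mean over cells. The feedback target Nrarp went the other way, with 1467 and 999 UMIs and a log2 ratio of −0.44 (−0.56 to −0.32). Nrarp was also lower over all cells (−0.52, −0.60 to −0.43) and in mural-like cells (−0.21, −0.36 to −0.07). In MuSC-like and Schwann-like cells its ratios were 0.01 and 0.02, with intervals that held 0. Within endothelial-like cells Notch1 (0.05, −0.02 to 0.13) and Notch4 (0.06, −0.09 to 0.22) did not differ beyond counting error. The median of the members was 0.06, and that of all genes 0.03. Of the immediate-early and heat-shock genes 4 of 18 were past 1.5-fold, all higher in the KO-labelled library.

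The subsets differed in some of these ratios. In capillary-like cells Dll4 had a log2 ratio of 0.42 (0.27 to 0.57) and in arterial-like cells −0.31 (−0.51 to −0.11). Dll1 was lower in the KO-labelled library in both, with −0.47 (−0.72 to −0.22) and −0.34 (−0.77 to 0.09). Hes1 was 0.13 (0.02 to 0.23) in capillary-like and 0.53 (0.33 to 0.74) in arterial-like cells. The capillary-like value of Hes1 turned to −0.13 as a mean over cells and to −0.24 (−0.46 to −0.02) in the 502 cells, where Dll4 had 0.28 (0.0020 to 0.57) and Dll1 −0.63 (−1.14 to −0.13). With 1 library per genotype, these differences between subsets were not tested.

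In mural-like cells 0 of the 10 members passed 1.5-fold, beside 13% of 11903 genes (7.24% higher and 5.75% lower in the KO-labelled library), and in this comparison without replicates there is no p-value to set beside that count. Hes1 had 266 CPM in the WT-labelled library and 361 CPM in the KO-labelled library, a log2 ratio of 0.44 (0.35 to 0.54), and 7 of 18 immediate-early and heat-shock genes passed 1.5-fold, all higher. In the part with little endothelial RNA it was 0.21 (−0.08 to 0.49). Notch3 was at −0.15 (−0.25 to −0.05) over all mural-like cells and at −0.07 (−0.26 to 0.13) in that part. Averaged over cells instead of summed it turned to 0.039. Notch1, level over all mural-like cells (0.02, −0.06 to 0.11), was lower in that part (−0.54, −0.95 to −0.12). Over all mural-like cells Notch2 was lower in the KO-labelled library, with −0.44 (−0.84 to −0.04) from 117 and 100 UMIs. Hey1 was higher there, with 0.32 (0.09 to 0.55) from 272 and 394 UMIs. In the part with little endothelial RNA the intervals of Notch2 (18 and 21 UMIs) and Hey1 (5 and 7 UMIs) held 0. The median of the members was 0.04, like that of all genes, 0.04.

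In FAP-like cells 2 of the 10 members passed 1.5-fold, both lower in the KO-labelled library, beside 13.9% of 12817 genes (5.77% higher and 8.1% lower). They were Dll1, with 29 and 19 UMIs, and Jag2, with 23 and 17 UMIs, both low in this type. Of the 19 Dll1 UMIs 1 cell held 6. Among the members that FAP-like cells express, Notch1 had a log2 ratio of −0.48 (−0.71 to −0.25), Notch2 −0.13 (−0.25 to −0.01), Jag1 −0.09 (−0.24 to 0.07) and Hes1 0.19 (0.09 to 0.29). The clusters differed in these ratios. Hes1 had 0.38 (0.23 to 0.54) in the largest cluster, 0.46 (0.26 to 0.65) in that led by Pi16 and −0.08 (−0.30 to 0.13) in that led by Clu, which was 249 of 1500 FAP-like cells in the WT-labelled and 245 of 2046 in the KO-labelled library. Jag1 had −0.10 (−0.33 to 0.13), 0.19 (−0.07 to 0.46) and −0.57 (−1.05 to −0.10) in the same order. The median of the members was −0.12, and that of all genes −0.06. Immediate-early and heat-shock genes past 1.5-fold were 8 of 18, all higher in the KO-labelled library, with 16456 against 24131 CPM.

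**Figure D5:**
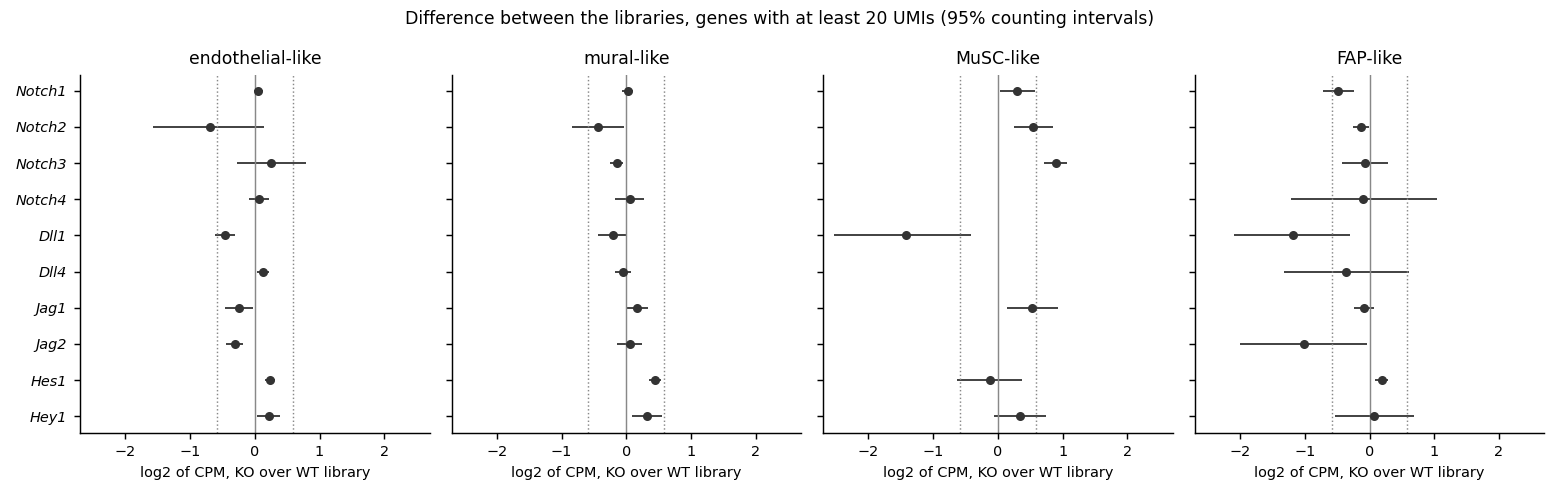
Log2 ratio of the KO-labelled over the WT-labelled library (horizontal axis) for each member with at least 20 UMIs in 4 cell types, with exact 95% counting intervals; dotted lines mark 1.5-fold. Notch3 in MuSC-like cells, at 0.89, is the point past the upper line, and the points past the lower line are Notch2 in endothelial-like, Dll1 in MuSC-like, and Dll1 and Jag2 in FAP-like cells.

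The list of other pathway genes held 48 genes measured, grouped as ligand-like proteins, glycosyltransferases that modify the receptor, proteases that cut it, ligases and adaptors that move receptor and ligand, the nuclear complex, and further targets. In MuSC-like cells 8 of 33 with at least 20 UMIs passed 1.5-fold, 5 higher and 3 lower in the KO-labelled library, beside 28.8% of all genes. Those of largest size were Hes6, a Hes protein of committed myoblasts, at 30.8 and 11.5 CPM (−1.42, −2.33 to −0.60), the ligase Dtx3 at 35 and 59 UMIs (1.08, 0.46 to 1.73), the coactivator Maml2 at 4.56 and 9.32 CPM (1.03, −0.35 to 2.51) and the ligand-like Dlk1 at 19.4 and 10.0 CPM (−0.95, −1.96 to −0.01). The nuclear complex gave 3 of 7 and the proteases 2 of 9, the latter in opposite directions.

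In FAP-like cells 5 of 38 passed, all lower in the KO-labelled library, beside 13.9% of all genes. They included the ligase Dtx3l, known also from the interferon response, at 99.0 and 47.7 CPM (−1.05, −1.18 to −0.92). The glycosyltransferase Lfng (−1.10, −2.12 to −0.11) came from 23 and 16 UMIs. The feedback target Nrarp (−0.97, −2.00 to 0.04), whose interval held 0, came from 21 and 16 UMIs. The ligase Neurl1b (−0.93) came from at most 69 UMIs per library. In endothelial-like cells 1 of 36 passed, beside 12.1% of all genes, Lfng at 15.3 and 9.58 CPM (−0.67, −1.13 to −0.22), and in mural-like cells 1 of 38, beside 13% of all genes, Maml2 at 30.9 and 46.7 CPM (0.60, 0.32 to 0.88). Neither the receptor proteases nor the nuclear complex had a member past 1.5-fold in endothelial-like or FAP-like cells.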

How the data were processed

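Single cells from gastrocnemius muscle were profiled with 10x 5′ chemistry. The authors aligned reads to mm10 with Cell Ranger (2.1.1 in the submitters' processing notes), removed doublets with DoubletFinder and cells above their mitochondrial limit, and deposited 1 table of natural log values, ln(1 + UMIs per 10000) per cell. UMIs were recovered from these values, with none of 29528482 further than 0.247 from a whole number. Libraries were told apart by barcode suffix (1 for KO, 2 for WT). Cells were clustered by Louvain (2000 variable genes, 30 components, a numpy version of Harmony, 20 neighbors, resolution 0.8) into 25 clusters, of which 4 with 1761 cells stayed unnamed. The largest of these (457 WT- and 441 KO-labelled cells) scored best for endothelial markers and the next (393 and 358 cells) for FAP markers. Both were left out of the named types for low depth and no own marker among their leading genes. The 58 Notch pathway genes were kept out of this step. UMIs were summed per library and cell type and scaled to 1000000 (CPM), with exact Poisson intervals (95%) for levels and exact binomial intervals for ratios. Recovery of UMIs was checked on recovered UMIs of real cells put through the log again, and the ratio intervals on simulated Poisson counts. Such counts hold no spread between cells or mice beyond counting error. A gene was called past 1.5-fold with at least 20 UMIs over both libraries. A count of 0 was read as up to 3 UMIs. No value was tested, since each genotype had 1 library. Named genes were the 10 members, pathway genes past 1.5-fold (at most 4 per type by size) and the genes most alike each member. The members and lists were chosen with earlier results of these data known. Alternatives changed the resolution, integration, doublets (Scrublet), low-depth cells (under 1000 UMIs), variable genes, naming of cells, scaling, fold and minimum of UMIs. Python 3.11.15, numpy 2.4.6, scipy 1.17.1, igraph 0.11.9 and scanpy 1.11.5 were used.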

Additional observations from a re-analysis of the deposited data

Results flagged for a closer look

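The ratio of the library labelled KO over WT went in opposite directions in different cell types for several genes, of which 2 were flagged. Notch2, not flagged, had 0.55 in MuSC-like and −1.76 in T-like cells, the latter from 48 and 14 UMIs. For Notch3 the log2 ratio was 0.89 in MuSC-like and −1.56 in dendritic-like cells, a difference of 2.45. For Hes1 it was 0.84 in dendritic-like and −1.56 in T-like cells, a difference of 2.40. The dendritic-like value of Hes1 was 0.011 as a mean over cells, and the T-like value rests on 18 and 6 UMIs. None of these differences was tested, since each genotype had 1 library. The dendritic-like cells (331) also had cell-cycle genes among their leading genes.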

How the results depend on the processing

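Of 203 log2 ratios recomputed under the alternatives, 191 stayed within the counting interval of the reported ratio and the rest moved out of it. The 203 covered 24 ratios of members in the 4 types. Notch2 in endothelial-like and Dll1 and Jag2 in FAP-like cells, past 1.5-fold on few UMIs, were not among them. For mural-like cells only Hes1, Jag1, Notch1 and Notch3 were included. Of the 24 ratios 5 changed sign under an alternative. For 4 of them the interval of the reported ratio held 0 (Hes1 in MuSC-like, Notch1 in endothelial-like and mural-like and Notch3 in FAP-like cells), and the fifth was Notch3 in mural-like cells, from −0.15 to 0.039 as a mean over cells. Of 80 levels 62 stayed within their interval and 18 did not, 8 each as a mean over cells and with cells named by marker scores. Jag1 in mural-like cells went from 99.6 to 168 CPM as a mean over cells. The count of members past 1.5-fold in endothelial-like cells went from 1 to 0 with the Notch genes among the variable genes, with Scrublet calls left out and at 2-fold. That in MuSC-like cells went from 2 to 1 at 2-fold and with at least 50 UMIs, and that in FAP-like cells from 2 to 0 with at least 50 UMIs. Other pathway genes past 1.5-fold, summed over the 4 types, went from 15 to 23 as a mean over cells, 5 at 2-fold and 39 with no minimum. The arterial-like over capillary-like log2 ratio of Hey1, 2.31, was 2.06 at resolution 0.4, 2.62 at 1.2 and 2.01 without integration. It was 3.23 in the arterial-like subcluster without hemoglobin genes and 1.63 against the capillary-like subcluster of 502 cells, both chosen after seeing the data. The ratio of Notch3 between the mural parts, 2.01, was 1.26 with cells named by marker scores and 1.84 as a mean over cells. The causes were not tested. No replicate could be left out, since each genotype had 1 library, and members with few UMIs, such as Dll1 in MuSC-like and FAP-like cells, are limited by depth. No paired analysis was possible because each group had 1 sample.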
